A study of Drosophila melanogaster with 6 samples.

Results

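The genes described here are gooseberry (gsb), gooseberry-neuro (gsb-n), paired (prd), engrailed (en), invected (inv), hedgehog (hh), patched (ptc), smoothened (smo) and cubitus interruptus (ci), the segment polarity and Hedgehog genes of the fly embryo. They were chosen by their exact gene symbol in the annotation of an Affymetrix Drosophila array. All 9 were found, each on 1 probe set, among 10844 genes in all. Their values come from 6 arrays, 3 of GFP-positive cells and 3 of GFP-negative cells, sorted by flow cytometry from dissociated Drosophila melanogaster embryos between late stage 11 and early stage 12. All embryos, and so both groups, carried the TinD-GFP reporter. Per the labels the insertion targets GFP to cardiac mesoderm cells that express Tinman, and the GFP-negative cells are the sorted cells of such embryos without GFP. GFP-negative cells can therefore still hold mesoderm of other kinds, and the labels name no mutant and no treatment. They are also silent on whether each replicate was an embryo collection or sort of its own, so the p-values measure the spread between these arrays, which may be technical.

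Segment polarity genes divide each segment of the embryo into stripes. In the ectoderm, cells of the posterior compartment express the homeodomain factors en and inv and secrete the ligand Hedgehog. Their anterior neighbours carry the receptor Patched, which holds Smoothened inactive until the ligand binds, and they express Ci, the transcription factor that answers the pathway. The paired-type factor gsb lies in and around the wingless stripe and maintains wingless there, gsb-n follows it in the nervous system, and prd acts earlier as a pair-rule gene. In the mesoderm the same stripes matter, since the Hedgehog and engrailed regions of a segment favour visceral mesoderm and the wingless and sloppy paired regions favour heart and body muscle.

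In GFP-positive cells gsb was lower than in GFP-negative cells, and it was the single gene of the 9 past the test. The levels of inv and en lay below, and that of ci above, those of GFP-negative cells without overlap between the groups, but none of the 3 passed. For hh, ptc, smo, gsb-n and prd the groups overlapped. Across the 9 genes the median log2 difference, GFP-positive minus GFP-negative, was -0.18, beside -0.023 over all genes, with 7 differences below and 2 above 0.

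The test was limma with a prior variance that follows the mean level, 2-sided, with p-values adjusted by Benjamini-Hochberg over all 13966 probe sets and called under 0.05. By this rule 0 of the 9 genes were called higher and 1 lower, and of all genes 1.5% were called higher and 0.968% lower, 2.47% in either direction. At an unadjusted p under 0.05 the count was 4 of 9, where 15.6% of all genes passed. The groups stood apart in 1 gene as higher and in 3 as lower, against 9.28% and 11% of all genes. When limma used 1 prior variance throughout, it called 0 probe sets and 0 of the 9 genes. Its unadjusted p lay under 0.05 for 1482 probe sets, for 10.8% of genes and for 2 of the 9, gsb and inv.

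**Figure D1:**
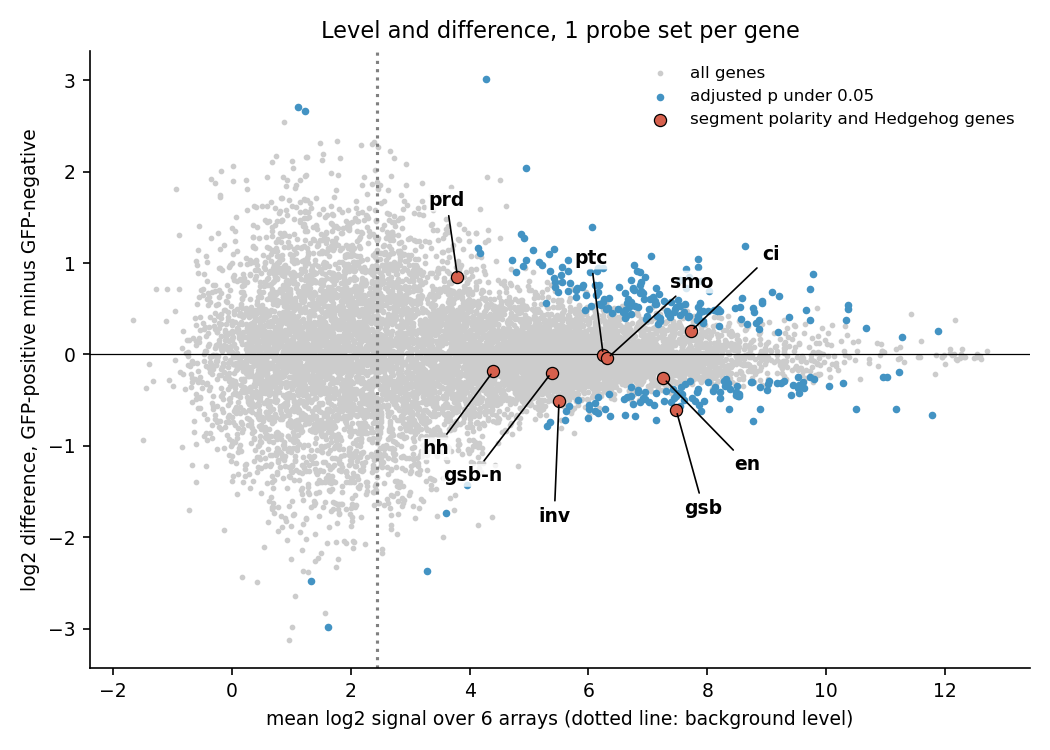
Mean log2 signal over the 6 arrays (x axis) against the log2 difference GFP-positive minus GFP-negative (y axis), 1 point per gene for 10844 genes, with genes past the adjusted threshold in blue and the segment polarity and Hedgehog genes in red with their names. The spread of differences narrows as the level increases, and gsb at -0.60 lies among the called genes while ptc and smo lie near 0.

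The cell groups were checked against markers. Of 9 measured mesoderm genes all 9 were higher in GFP-positive cells and 4 passed (if, Him, bap and lmd). Their summed linear signal was 1367 to 1411 in GFP-positive cells and 957 to 977 in GFP-negative cells. Of 14 measured cardiac and dorsal mesoderm genes 8 were higher and 6 lower in GFP-positive cells, 4 and 3 of them at an unadjusted p under 0.05, and Him alone passed after adjustment. The T-box genes Doc1, Doc2 and Doc3 and the GATA factor gene pnr, which are also known from dorsal ectoderm, lay lower in GFP-positive cells without overlap. Their differences were -0.21 (limma adjusted p = 0.332), -0.42 (0.164), -0.36 (0.082) and -0.29 (0.354). Beside Him, the genes htl (0.52, limma adjusted p = 0.118), tup (0.45, 0.134) and eve (0.34, 0.322) lay higher without overlap. The summed signal of the cardiac and dorsal mesoderm genes was 784 to 830 in GFP-positive cells and 704 to 788 in GFP-negative cells. The heart gene Hand averaged 2.49 (log2 signal) in GFP-positive cells and 1.10 in GFP-negative cells, just above and below the background level of 2.44, and lbe and lbl lay below it in both groups. The gene tin itself is not analysed here. Hemocyte genes moved with the mesoderm genes. Of 11 measured, 8 were higher in GFP-positive cells, each at an unadjusted p under 0.05, the median difference was 0.43, and the matrix genes Ppn (0.85, limma adjusted p = 0.010) and vkg (1.11, 0.042) passed. Their summed signal was 802 to 869 in GFP-positive cells and 625 to 653 in GFP-negative cells, while the hemocyte genes Hml and NimC1 lay below background in both groups. Of the neuron, glia, midgut and trachea genes 0 passed by limma, while at p under 0.05 before adjustment 1 gene was higher in each of the neuron, glia and midgut lists and 1 lower in the trachea list. The part of hemocytes in the results below was not tested. In sorted mixtures like these, fewer cells of a type and less RNA per cell cannot be told apart. The 3′ minus 5′ log2 signal of the GAPDH control was 2.62, 1.20 and 3.50 in GFP-positive cells and 0.46, 0.27 and 1.26 in GFP-negative cells, while those of actin (1.22 to 1.48 and 1.27 to 1.36) and eIF-4a (2.13 to 2.19 and 2.11 to 2.45) overlapped. The part of this difference in the results below was not tested.

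The paired-type factor gene gsb had log2 signals of 7.16, 7.01 and 7.34 on the GFP-positive arrays, against 7.85, 7.75 and 7.74 on the GFP-negative arrays. All 3 GFP-positive values lay below all 3 GFP-negative values, with a gap of 0.39 between the groups. The GFP-positive mean was 7.17 ± 0.17 and the GFP-negative mean 7.78 ± 0.060 (SD of 3 arrays each). By limma's fit gsb fell by 0.60 on the log2 scale (SE 0.092, 95% interval -0.81 to -0.40, adjusted p = 0.014), a signal 0.658 times that of GFP-negative cells with an interval of 0.569 to 0.760. The difference kept its sign without any single array, between -0.69 and -0.52. The call remained without GFP-positive replicate 3 (adjusted p = 0.018) or GFP-negative replicate 2 (0.048). It was lost without GFP-positive replicate 1 (0.059) or 2 (0.052) and without GFP-negative replicate 1 (0.053) or 3 (0.058), and adjusted p was 0.276 with 1 prior variance throughout.

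Its close relative gsb-n, which is known for its role in the central nervous system, had log2 signals of 5.33, 5.33 and 5.18 on the GFP-positive and 5.23, 5.75 and 5.45 on the GFP-negative arrays. GFP-negative replicate 1 lay among the GFP-positive values, so the groups overlapped. The difference of -0.20 ± 0.15 (SE, 95% interval -0.55 to 0.15, limma adjusted p = 0.634) did not pass. gsb and gsb-n are neighbours on chromosome arm 2R, with 0 annotated protein-coding genes between them in the RefSeq gene table of fly genome Release 6. Whether they differed unequally was tested on the log2 signal of gsb minus that of gsb-n within each array. This was 1.83, 1.68 and 2.17 on the GFP-positive and 2.61, 2.00 and 2.28 on the GFP-negative arrays. The groups' means differed by -0.41 (2-sided exact permutation test, p = 0.20, 0.30 adjusted over the 2 pairs tested), in a design where the smallest possible p is 0.10. An unequal change of the neighbours was thus not shown.

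The pair-rule gene prd, which also encodes a paired-type homeodomain factor and acts upstream of the segment polarity stripes, had log2 signals of 3.91, 4.17 and 4.60 on the GFP-positive arrays, against 4.66, 3.28 and 2.18 on the GFP-negative arrays. The GFP-negative values spread over more than 2 log2 units, with replicate 1 above every GFP-positive array and replicate 3 below the background level. The background level of 2.44 is the highest mean among 23 control probe sets for other organisms. The GFP-positive mean was 4.22 ± 0.35 and the GFP-negative mean 3.37 ± 1.24 (SD of 3 arrays each). Their difference of 0.85 ± 0.57 (SE, 95% interval -0.44 to 2.14, limma adjusted p = 0.571) is the largest of the 9 in size and did not pass. Leaving out GFP-negative replicate 1 gave 1.49, leaving out GFP-negative replicate 3 gave 0.26, and the value was 0.20 with a pseudocount of 32 on the linear scale.

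**Figure D2:**
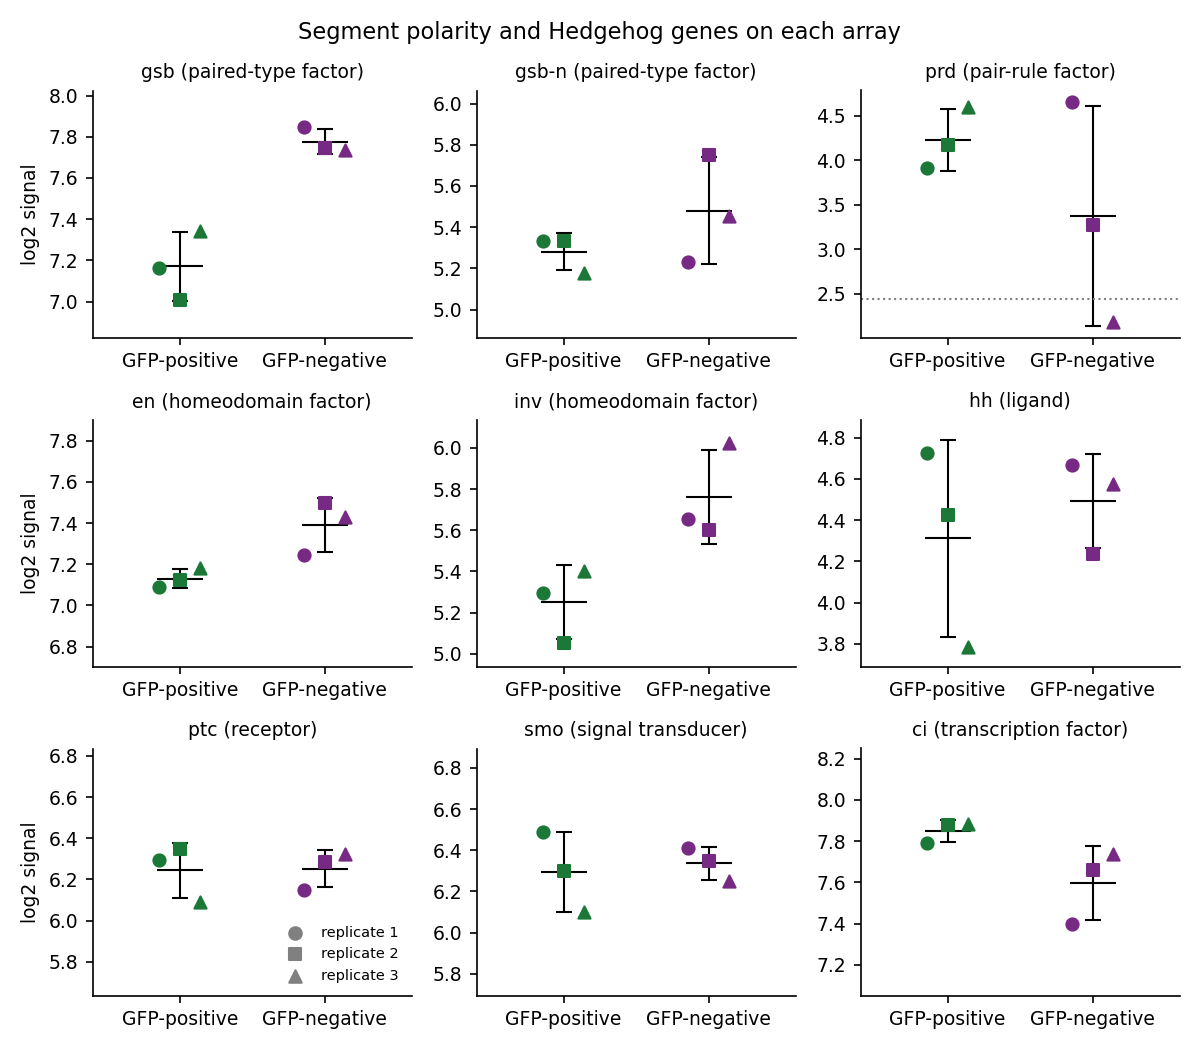
Log2 signal of the 9 genes on each array, with GFP-positive arrays in green on the left and GFP-negative arrays in purple on the right of each panel, and marker shapes for the replicate numbers. Bars show the mean and SD of 3 arrays, the dotted line in the prd panel is the background level of 2.44, and the groups do not overlap for gsb, en, inv and ci.

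The homeodomain factor genes of the posterior compartment came next to gsb. For inv the log2 signals were 5.30, 5.05 and 5.40 on the GFP-positive arrays, against 5.65, 5.60 and 6.02 on the GFP-negative arrays. The groups stood apart by 0.20, with GFP-negative replicate 3 the highest. The GFP-positive mean was 5.25 ± 0.18 and the GFP-negative mean 5.76 ± 0.23 (SD of 3 arrays each). The difference was -0.51 ± 0.15 (SE, 95% interval -0.86 to -0.16, limma adjusted p = 0.148), a ratio of 0.703 that did not pass after adjustment over all probe sets. It was -0.30 with the pseudocount.

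The log2 signals of en were 7.09, 7.12 and 7.18 on the GFP-positive and 7.24, 7.50 and 7.43 on the GFP-negative arrays. The groups were apart by only 0.063, the step between GFP-positive replicate 3 and GFP-negative replicate 1. The difference of -0.26 ± 0.083 (SE, 95% interval -0.45 to -0.072, limma adjusted p = 0.165) did not pass, and the GFP-positive mean was 7.13 ± 0.047 and the GFP-negative mean 7.39 ± 0.13 (SD of 3 arrays each). en and inv are also neighbours on 2R, with 0 protein-coding genes between them. The within-array log2 signal of en minus that of inv was 1.79, 2.07 and 1.78 on the GFP-positive and 1.59, 1.90 and 1.41 on the GFP-negative arrays. These overlapped, and the means differed by 0.25 (exact permutation test, p = 0.30, adjusted p = 0.30). The smallest possible p is again 0.10, so this test does not decide whether en and inv changed unequally.

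The ligand gene hh, which en and inv cells express, had a low signal. Its log2 values were 4.72, 4.43 and 3.79 on the GFP-positive and 4.67, 4.24 and 4.58 on the GFP-negative arrays. GFP-positive arrays held both the highest and the lowest value. The difference was -0.18 ± 0.27 (SE, 95% interval -0.81 to 0.44, limma adjusted p = 0.840) and became 0.082 without GFP-positive replicate 3. An interval this wide allows a GFP-positive level from 0.572 to 1.36 times that of GFP-negative cells.

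The receptor gene ptc, which is itself switched on by Hedgehog signalling, had log2 signals of 6.29, 6.35 and 6.09 on the GFP-positive and 6.15, 6.29 and 6.32 on the GFP-negative arrays. The values of the groups were interleaved. The difference was -0.0083 ± 0.10 (SE, limma adjusted p = 0.982), and its 95% interval of -0.24 to 0.22 bounds the GFP-positive level between 0.847 and 1.17 times the GFP-negative one. For smo, the membrane protein that ptc restrains, log2 signals were 6.49, 6.30 and 6.10 on the GFP-positive and 6.41, 6.35 and 6.25 on the GFP-negative arrays. All 3 GFP-negative values lay inside the range of the GFP-positive ones. The difference was -0.043 ± 0.11 (SE, 95% interval -0.30 to 0.22, limma adjusted p = 0.919).

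ci, the zinc finger factor at the end of the pathway, had a difference of the opposite sign to gsb, inv and en. Its log2 signals were 7.79, 7.88 and 7.88 on the GFP-positive arrays, against 7.40, 7.66 and 7.74 on the GFP-negative arrays. Every GFP-positive value was higher, although GFP-negative replicate 3 came within 0.053 of the lowest of them. The GFP-positive mean was 7.85 ± 0.053 and the GFP-negative mean 7.60 ± 0.18 (SD of 3 arrays each). The difference of 0.25 ± 0.092 (SE, 95% interval 0.044 to 0.46, limma adjusted p = 0.234) did not pass, and without GFP-negative replicate 1 it was 0.15.

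**Figure D3:**
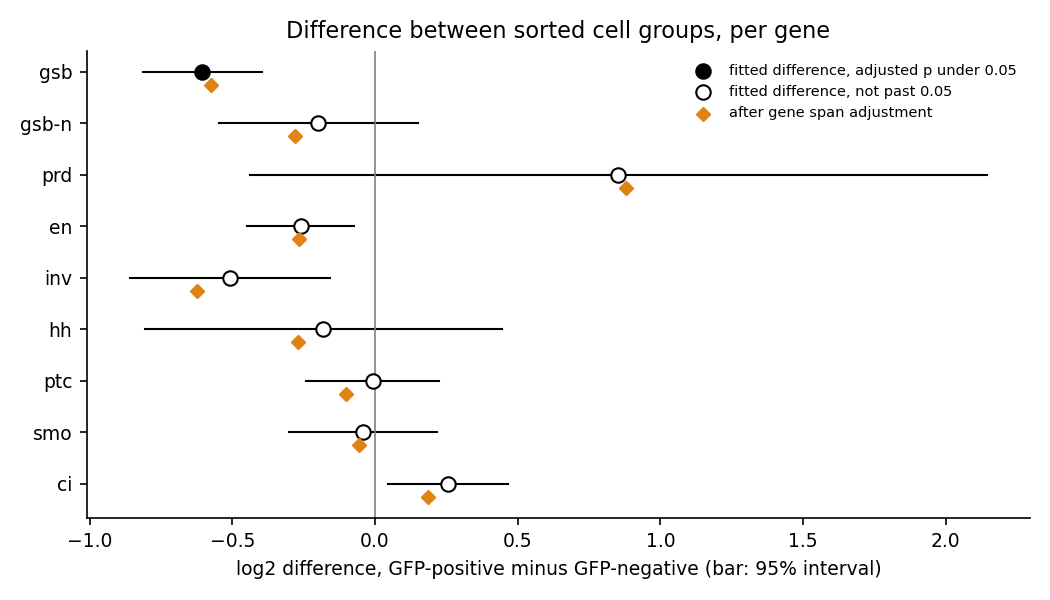
Log2 difference GFP-positive minus GFP-negative of each gene (circles, filled where adjusted p is under 0.05) with its 95% interval, and the difference after adjustment for gene span (orange diamonds). Only the circle of gsb is filled, the intervals of gsb, en, inv and ci leave out 0, and the interval of prd is the widest at -0.44 to 2.14.

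Differences in this experiment moved with the genomic span of genes, so the genes other than prd were set beside genes of like span. The mean log2 signal of prd, 3.80, lies below the cut used here. Over 5169 genes with a mean log2 signal above 4, the median difference ran from -0.18 in the decile of shortest genes to 0.24 in the longest. inv lies in the longest decile, and its difference minus that median was -0.75. gsb lies in the fifth decile, whose median was -0.078, and its difference minus that median was -0.53. en and smo lie in the seventh, with a median of 0.00023, and gsb-n, hh, ptc and ci in the ninth, with a median of 0.14. The difference of ci minus that median was 0.11, that of ptc -0.15, that of gsb-n -0.34 and that of hh -0.33. After adjustment for span the difference of gsb was -0.57 ± 0.094 (SE, limma adjusted p = 0.026), that of inv -0.62 ± 0.16 (0.135), that of en -0.26 ± 0.089 (0.244) and that of ci 0.18 ± 0.098 (0.50).

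**Figure D4:**
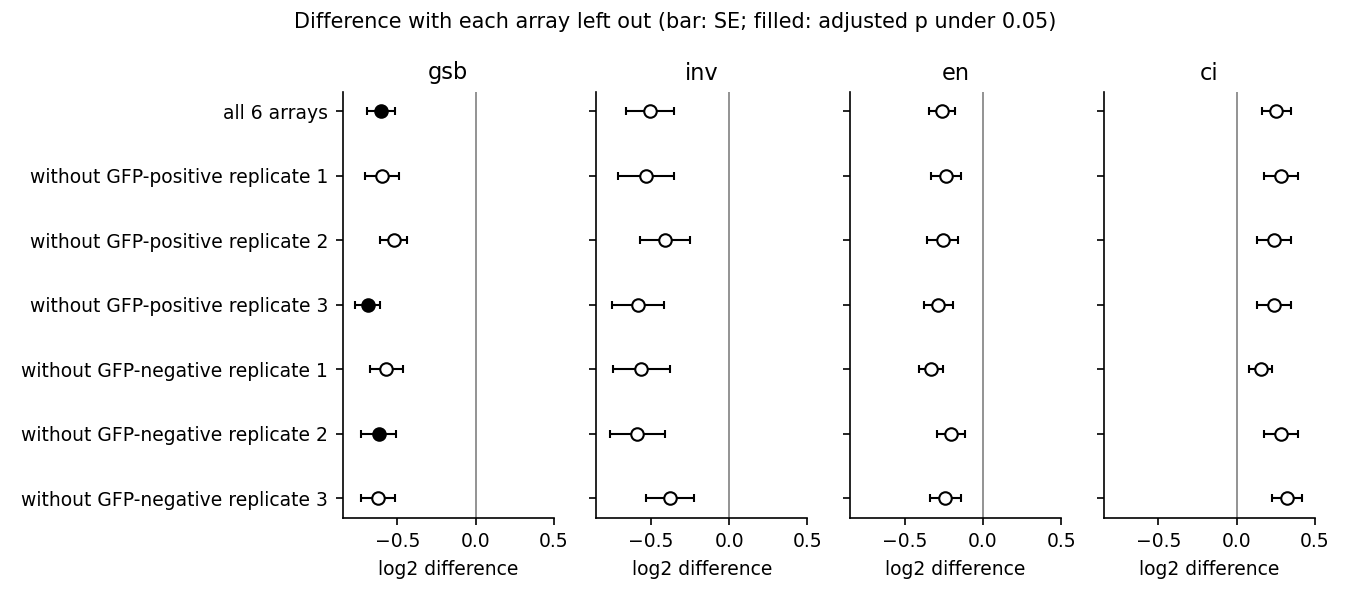
Log2 difference (x axis) of gsb, inv, en and ci with all 6 arrays and with each array left out in turn (rows), with SE as bars and filled circles where adjusted p is under 0.05. The sign stays the same in every row of these panels, and for gsb 2 of the 6 fits without an array keep the call.

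gsb marks neuroectoderm as well as epidermis, so the markers of these tissues stand beside it. Of 16 measured neuroblast genes 1 was called, hb, which was higher, and the median difference was -0.11. By limma's unadjusted p under 0.05, 2 (hb and ase) were higher and 3 (dpn, pdm2 and D) were lower. The summed linear signal of the 16 genes was 2226 to 2320 in GFP-positive cells and 2331 to 2452 in GFP-negative cells. Of 8 measured epidermis genes 0 passed by limma, with a median difference of 0.24 and a lowest adjusted p of 0.058. Before adjustment, 2 of them were higher and 1 was lower with p under 0.05. Their sum was 2024 to 2191 in GFP-positive cells and 1620 to 1884 in GFP-negative cells. The part of either tissue in the lower gsb signal was not tested.

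The genes most like gsb over the 6 arrays were sought by the Euclidean distance of their values after each gene was centred on its mean. Among 5178 genes with a mean log2 signal above 4, the nearest were RecQ4, a DNA helicase gene, at a distance of 0.128, Ts at 0.156 and eIF6, a ribosome assembly and translation factor gene, at 0.196. Their log2 differences were -0.62, -0.62 and -0.48. Values near that of gsb follow from this choice and are given without a test.

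The other genes of the pathway came from lists by role. Outside the 9 genes, 46 listed genes were measured, with a median log2 difference of 0.087. Of these 5 rose in GFP-positive cells, 0 fell and 41 did not pass. That is 10.9% called, beside 2.47% of all genes. The bases are unlike, since all genes include dim ones and the lists were made with earlier results of these data known. An excess of calls was not tested. At an unadjusted p under 0.05, 12 were higher and 5 lower. The 5 called genes were dlp, gish, kn, nkd and hry. By limma's fit without 1 array, hry kept its call in 6 of 6 fits, nkd in 3, kn in 1, and dlp and gish in 0.

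Release and spread of the ligand were covered by 6 measured genes, of which 1 rose. dlp, the glypican Dally-like that carries Hedgehog at the cell surface, had log2 signals of 7.36, 7.32 and 7.30 on the GFP-positive and 7.01, 6.98 and 6.99 on the GFP-negative arrays. The groups were well apart, and dlp rose by 0.33 ± 0.065 (SE, adjusted p = 0.033). After the span adjustment its difference was 0.22 (adjusted p = 0.214), and with the mean of its probe sets 0.22 (0.340). rasp, the acyltransferase gene that palmitoylates the ligand, differed by -0.23 (adjusted p = 0.334), ttv, a heparan sulphate polymerase gene, by 0.33 (0.236), and disp, whose product releases the ligand, by 0.029 (0.959).

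For reception, 0 of 3 measured genes passed by limma, also at an unadjusted p under 0.05. The co-receptor genes ihog and boi differed by -0.086 (limma adjusted p = 0.691) and 0.040 (0.945), and Gprk2, a kinase gene that acts on Smoothened, by 0.12 (0.677). Transduction inside the cell was covered by 11 measured genes, of which 1 rose and 0 fell. gish, a casein kinase gene, had log2 signals of 8.40, 8.32 and 8.33 on the GFP-positive and 7.99, 8.04 and 8.08 on the GFP-negative arrays. It rose by 0.31 ± 0.058 (SE, adjusted p = 0.029), and after the span adjustment the difference was 0.20 (0.218).

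The ubiquitin ligase genes SkpA, Cul1 and Cul3, whose complexes process or degrade Ci, differed by -0.15 (limma adjusted p = 0.206), -0.030 (0.921) and -0.058 (0.820). Of the 11 transduction genes 5 were higher and 6 lower, with a median difference of -0.030. Beside gish and SkpA, the genes cos, Su(fu) and rdx of this list stood apart between the groups, cos and Su(fu) as lower and rdx as higher. The genes cos, Su(fu) and rdx were named here after their values were seen. Over release, reception and transduction together, 5 of 20 genes stood apart as higher and 4 as lower. Of all genes 9.28% stood apart as higher and 11% as lower. An excess was not tested. cos, a kinesin-like scaffold gene, had log2 signals of 4.22, 3.94 and 3.74 on the GFP-positive and 4.69, 4.45 and 4.46 on the GFP-negative arrays. Its difference of -0.57 ± 0.22 (SE, limma adjusted p = 0.277) did not pass. Su(fu), which binds Ci, had 6.42, 6.43 and 6.23 on the GFP-positive and 6.58, 6.66 and 6.54 on the GFP-negative arrays. Its difference was -0.24 ± 0.090 (SE, limma adjusted p = 0.251). rdx, the adaptor gene through which Cul3 degrades Ci, had 7.38, 7.26 and 7.44 on the GFP-positive and 7.12, 6.79 and 6.80 on the GFP-negative arrays. Its difference was 0.46 ± 0.10 (SE, limma adjusted p = 0.061).

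**Figure D5:**
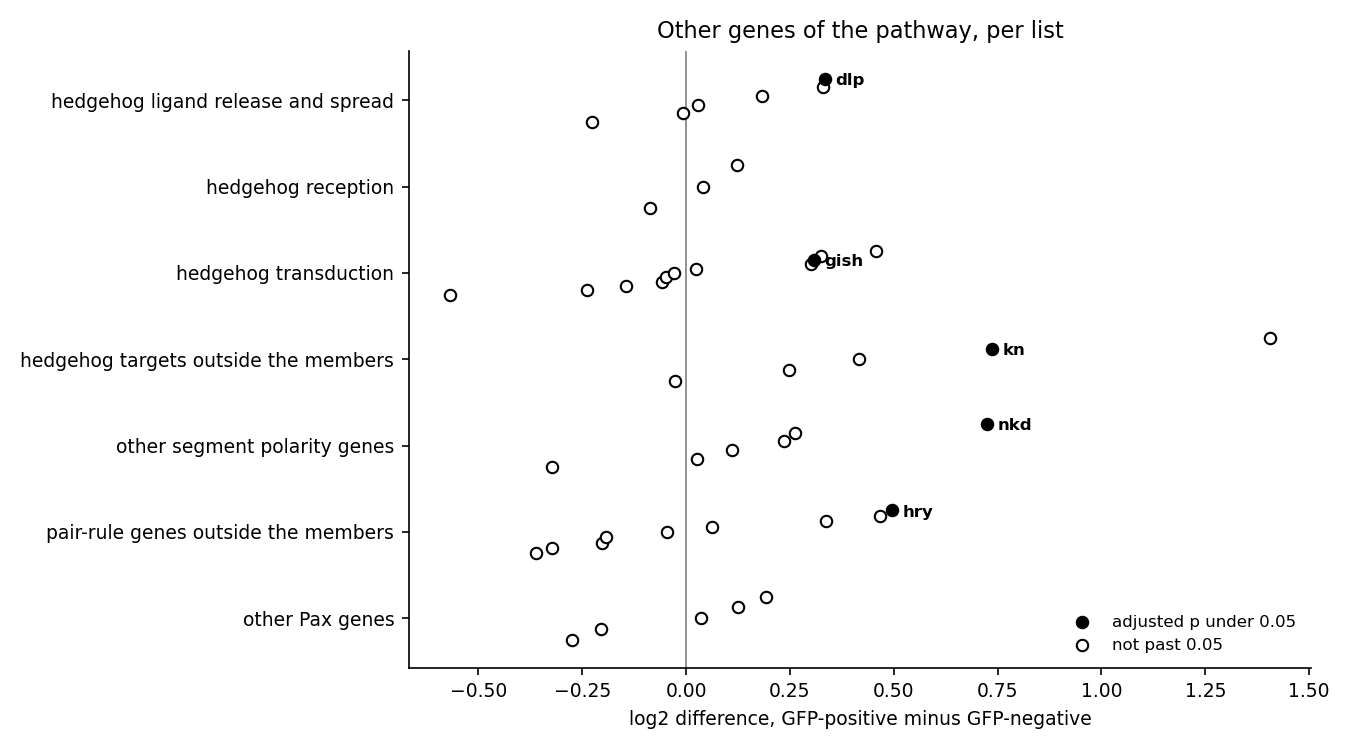
Log2 difference GFP-positive minus GFP-negative (x axis) of the other pathway genes, 1 row of points per list, for genes with a mean above background in either group, with filled points where adjusted p is under 0.05. The 5 filled points, dlp, gish, kn, nkd and hry, all lie above 0, and the far right open point at 1.41 is ara, which did not pass.

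Of 5 measured genes listed as Hedgehog targets, kn rose. Whether these genes answer Hedgehog in the sorted cells was not tested. kn, or collier, a transcription factor that Hedgehog signalling controls in the wing, had log2 signals of 6.38, 6.16 and 6.23 on the GFP-positive and 5.44, 5.74 and 5.38 on the GFP-negative arrays. GFP-negative replicate 2 was the highest of its group and still 0.42 below the lowest GFP-positive array. kn rose by 0.74 ± 0.12 (SE, adjusted p = 0.021), with 0.62 (0.054) after the span adjustment. dpp, the BMP ligand gene, was higher without overlap but did not pass (0.42, limma adjusted p = 0.134), and mirr and caup of the Iroquois complex differed by -0.026 (0.941) and 0.25 (0.446).

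On the Wingless side of the stripe, 6 further segment polarity genes were measured. nkd, an antagonist of Wingless signalling, had log2 signals of 7.28, 7.52 and 7.72 on the GFP-positive and 6.74, 6.88 and 6.71 on the GFP-negative arrays. nkd rose by 0.72 ± 0.11 (SE, adjusted p = 0.016), and with the mean of its probe sets the difference was 0.41 (0.087). The co-repressor gene gro, the homeotic gene tsh and the T-box gene mid differed by 0.26 (limma adjusted p = 0.182), 0.24 (0.557) and 0.026 (0.971). Of the 6 genes 5 were higher and 1 lower. The lower gene was slp2, a sloppy paired gene, at -0.32 without overlap between the groups (limma adjusted p = 0.280). wg itself is not analysed here.

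Among 10 measured pair-rule genes apart from prd, 1 rose and 0 fell. hry, the hairy repressor gene, had log2 signals of 7.69, 7.78 and 7.65 on the GFP-positive and 7.20, 7.18 and 7.26 on the GFP-negative arrays. The groups lay clearly apart, and hry rose by 0.50 ± 0.067 (SE, adjusted p = 0.0079). odd differed by 0.063 (limma adjusted p = 0.746), Ten-m by 0.47 (0.068) and ftz by -0.20 (0.384). At an unadjusted p under 0.05, 3 of the 10 were higher and 2 lower. The lower ones were drm (-0.36, limma adjusted p = 0.079) and slp2, which is on this list too. Ten-m passed with the mean of its probe sets (0.53, adjusted p = 0.017), without the dimmest probe sets (0.024), with the replicate block (0.032) and without GFP-negative replicate 2 (0.048). Of the other Pax genes, the family to which gsb, gsb-n and prd belong, 0 of 6 measured passed by limma, with or without adjustment of p. ey, toy and Poxm differed by 0.19 (adjusted p = 0.749), 0.037 (0.955) and -0.20 (0.816), and sv lay below background in both groups.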

How the data were processed

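The deposited values are log2 signals, 1 for each probe set on each array. The submitters' processing notes name the affy package. Of its version, the background correction, the scaling and the base of the logarithm nothing is stated in these sources. Base 2 was taken from the range of the values, and array medians of 3.71 to 3.73 show like scaling. No further scaling was applied. After 44 controls were left out, 13966 probe sets entered a linear model in limma 3.58.1 under R 4.3.3 (eBayes with trend and robust options, no block). Signals of different probe sets are not compared as levels. Summed signals of marker lists weight each gene by the brightness of its probe set. Genes were named from the platform annotation, with 12443 probe sets naming 1 gene. The brightest probe set stood for a gene.

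The members, lists and the choice of fit were made with earlier results of these data known. All 9 members are named, and of each pathway list the called genes and up to 3 of the brightest others. Of marker lists the called genes are named. The genes cos, Su(fu), rdx, ara, sv, slp2, drm, Hand, lbe, lbl, Hml, NimC1, pnr and the Doc genes fall outside this rule. So do htl, tup, eve, ase, dpn, D, pdm2 and ed. They were chosen after their values were seen. Same-numbered replicates correlated in their deviations by 0.060, 0.012 and 0.024 over all probe sets, and the main fit did not treat them as pairs. Dim probe sets, whose spread is widest, enter these correlations, so pairing among bright genes is not excluded. With a replicate block 437 probe sets were called, against 340 without it. The labels do not place arrays in batches. Precision is limited by 3 arrays per group. The genes tin and wg and some other listed genes are not analysed here.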

Additional observations from a re-analysis of the deposited data

How the results depend on the processing

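The 16 alternatives were a single prior variance, a replicate block, quantile normalization, median centring, array weights, no dim probe sets, a pseudocount, the mean of a gene's probe sets, the span adjustment, the same genes without it (added after seeing the data) and 6 fits without 1 array. Probe sets called numbered 340, and 0 with the single prior variance, 655 without the dimmest 40% and 156 with the span adjustment, where the same genes unadjusted gave 290. The fits without 1 array gave 102 to 189 calls, and fewer samples entered them. Of the 9 genes 1 was called, 0 with the single prior variance and 0 to 1 without 1 array. The replicate block gave 437 calls, kept gsb (adjusted p = 0.016) and added gro (0.044) and Ten-m (0.032). Of the GFP-positive arrays, 2 of 3 correlated best with their own number.

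Signs turned for ptc with array weights (0.015) and for mid (-0.014 with array weights, -0.015 with the span adjustment). With the span adjustment they also turned for disp (-0.019), Gprk2 (-0.0012), boi (-0.067) and toy (-0.060), and for boi with the mean of its probe sets (-0.18). Without 1 array the range crossed 0 for hh (-0.39 to 0.082), ptc (-0.060 to 0.068), smo (-0.14 to 0.055), boi (-0.074 to 0.13), Cul1 (-0.12 to 0.016), Cul3 (-0.11 to 0.014), disp (-0.059 to 0.10), mid (-0.096 to 0.20), mirr (-0.087 to 0.024), Poxm (-0.44 to 0.11) and toy (-0.096 to 0.10). Apart from the stated effect of fewer samples, the cause was not tested. The pair differences kept their signs, from -0.56 to -0.25 for gsb minus gsb-n and from 0.084 to 0.38 for en minus inv. Low signal limits prd and hh.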
